A study of Mus musculus with 80 samples.

Results

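The 10 genes examined encode heat shock proteins and chaperones of the cytosol (Hspa8, Hsp90aa1, Hsp90ab1, Tcp1 and Cct2), the endoplasmic reticulum (Hspa5 and Hsp90b1) and the mitochondrion (Hspa9, Hspd1 and Hspe1). They were taken by name from the 21938 protein-coding genes of GENCODE release M21 on mm10, and every RXR peak that overlapped a gene body by at least 1 bp was kept, which gave 1387 peaks. Peaks came from RXR ChIP-Seq, in which an antibody against RXR pulls down the DNA it is attached to and the recovered fragments are sequenced, in livers of 5-month-old male C57BL6/J mice. WT mice and liver-specific PPARγ KO mice, whose floxed Pparg gene is deleted by a Cre driven by the albumin promoter of hepatocytes, ate either a control or a high-fat diet for 12 weeks, each with or without pioglitazone, and these groups are called Control, Pio, HFD and HFD-Pio. There were 5 livers in every one of the 8 groups, and each liver gave 1 ChIP library and 1 input library. The sample labels name an RXR antibody for the 20 WT libraries and for the 5 KO Control libraries, and none for the other 15 KO libraries, whose titles name RXR. Those 15 were taken as RXR ChIP, and every value of KO Pio, KO HFD and KO HFD-Pio rests on that.

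Chaperones bind newly made or damaged proteins and help them to fold. Hsp70 proteins hold short exposed stretches of a chain, Hsp90 proteins act on nearly folded clients such as steroid receptors and kinases, and the barrel-shaped Hsp60 and TRiC complexes enclose a whole chain. All cells make these proteins in large amounts, and liver, which secretes most plasma proteins, relies on those of the endoplasmic reticulum. RXR is a nuclear receptor that binds DNA together with partners such as PPARγ, the receptor that pioglitazone activates, usually at repeats of the hexamer AGGTCA.

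Depth and peak calling differed between the genotypes and within WT. After duplicate removal WT libraries held 2035170 to 4256749 tags and KO libraries 627698 to 1057899. The authors called peaks in each library against its own input, with a p cutoff of 0.001 in WT and a q cutoff of 0.05 in KO, and the lists held 579 to 33705 peaks in WT and 7630 to 30437 in KO. In 6 WT libraries (Pio livers 2, 3 and 5, HFD-Pio livers 1, 4 and 5) the fragment length estimated by the peak caller was 45 to 48 bp, against 119 to 292 bp in the other 34. Genotype, depth and cutoff cannot be told apart in any comparison of WT with KO. A gene is called in a liver if any peak there overlaps its body, and its strength is the fold enrichment of its strongest peak, the ratio of ChIP to local background as deposited. The peaks were thin: in KO libraries the deposited pileup was 5 tags or fewer at 575 of 1056 peaks of these genes, with a median of 5 and a highest value of 54, and in the WT libraries with Pio at 180 of 330, with a median of 5 and a highest value of 34.

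Peaks at the chaperone genes lay over coding exons, so the sequences that carry the result are exons. Hspa5 exon 7 (chr2:34774505-34774802, plus strand), Hsp90ab1 exon 3 (chr17:45571383-45571649, minus strand) and Hspe1 exon 2 (chr1:55089021-55089245, plus strand) were among the exons called in most livers, and each is shown with 30 intron bases on either side, the exon in capitals. Exons are numbered along 1 annotated transcript of each gene, 5′ to 3′.
Hspa5 exon 7: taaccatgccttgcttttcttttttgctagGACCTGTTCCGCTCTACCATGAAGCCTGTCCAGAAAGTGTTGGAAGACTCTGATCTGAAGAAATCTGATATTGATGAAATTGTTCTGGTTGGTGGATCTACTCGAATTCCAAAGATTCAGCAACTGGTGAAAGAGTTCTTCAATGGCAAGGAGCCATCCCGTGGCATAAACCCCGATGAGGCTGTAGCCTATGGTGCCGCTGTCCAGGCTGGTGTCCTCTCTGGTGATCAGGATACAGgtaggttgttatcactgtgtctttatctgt
Hsp90ab1 exon 3: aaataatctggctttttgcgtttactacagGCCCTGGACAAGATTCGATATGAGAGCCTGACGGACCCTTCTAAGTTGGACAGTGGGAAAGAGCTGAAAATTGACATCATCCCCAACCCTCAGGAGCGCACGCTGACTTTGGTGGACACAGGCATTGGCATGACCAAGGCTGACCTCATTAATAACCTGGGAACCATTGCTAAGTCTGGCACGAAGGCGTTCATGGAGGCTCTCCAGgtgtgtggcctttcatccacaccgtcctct
Hspe1 exon 2: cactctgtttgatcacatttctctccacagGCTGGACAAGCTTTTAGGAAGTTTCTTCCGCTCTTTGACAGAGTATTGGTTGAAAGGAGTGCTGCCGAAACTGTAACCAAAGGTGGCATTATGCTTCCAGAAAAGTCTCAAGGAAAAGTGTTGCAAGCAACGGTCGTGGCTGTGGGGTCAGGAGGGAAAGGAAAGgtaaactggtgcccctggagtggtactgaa

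Hspa5 exon 7 was called in 20 of 20 KO livers and in 8 of the 10 WT livers given Pio or HFD-Pio. The same counts, 20 and 8, held for Hsp90ab1 exon 3, and Hspe1 exon 2 was called in 15 and 9. Windows of 49 bases were also searched for identical copies elsewhere in mm10. Every window of Hspa5 exon 7 and of Hsp90ab1 exon 3 was found once, and 53.8% of the windows of Hspe1 exon 2 were.

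The next sequences show exons that have a copy elsewhere. Hsp90aa1 exon 4 (chr12:110694571-110694704, minus strand) and the first 134 bases of its exon 10 (chr12:110692314-110692447, minus strand) are printed beside the matching stretches of the intronless pseudogene Gm12346 (chr11:77294025-77294158 and chr11:77295455-77295588, plus strand), with bases that differ in capitals. The exon 4 pair differs at 1 base of 134, and the longest identical run is 78 bases. The exon 10 pair is identical over 134 bases.
Hsp90aa1 exon 4: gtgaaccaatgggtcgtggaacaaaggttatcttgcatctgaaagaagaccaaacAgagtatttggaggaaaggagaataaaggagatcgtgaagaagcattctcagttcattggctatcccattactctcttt
Gm12346 opposite exon 4: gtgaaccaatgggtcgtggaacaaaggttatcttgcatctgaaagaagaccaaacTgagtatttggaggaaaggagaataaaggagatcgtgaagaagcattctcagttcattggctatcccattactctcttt
Hsp90aa1 exon 10: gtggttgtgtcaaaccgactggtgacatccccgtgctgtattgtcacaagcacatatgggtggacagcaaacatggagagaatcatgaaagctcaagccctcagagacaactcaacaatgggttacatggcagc
Gm12346 opposite exon 10: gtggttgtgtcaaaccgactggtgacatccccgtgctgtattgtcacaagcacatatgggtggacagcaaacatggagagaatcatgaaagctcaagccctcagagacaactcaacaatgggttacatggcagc

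Exon 4 of Hsp90aa1 was called in 19 of 20 KO livers and in 0 of the 10 WT livers given Pio or HFD-Pio, and exon 10 in 0 of 20 and in 7 of 10. In exon 4, 56.98% of the windows of 49 bases were found once in mm10, and in exon 10 none of them was.

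In untreated WT livers RXR peaks were nearly absent from these genes, and most protein-coding genes had none either. Of all 21938 genes 78.4% were called in no WT Control liver and 92.6% in no WT HFD liver. None of the 10 genes was called in WT HFD, and in WT Control 1 gene, Hspe1, was called in 1 liver, by a single peak of 4.47-fold that lay wholly in an intron. With Pio on control diet, 10, 10, 10, 3 and 10 genes were called in livers 1 to 5. With HFD-Pio the counts were 10, 2, 3, 10 and 6. In at least 3 livers, 10 of the 10 genes were called in WT Pio and 6 in WT HFD-Pio, where 12.7% and 9.996% of all genes were. The counts per liver of both Pio groups lay above those of their untreated diet groups in every liver. The plot of genes and copies per liver shows these counts with those of the copies described further on.

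**Figure D1:**
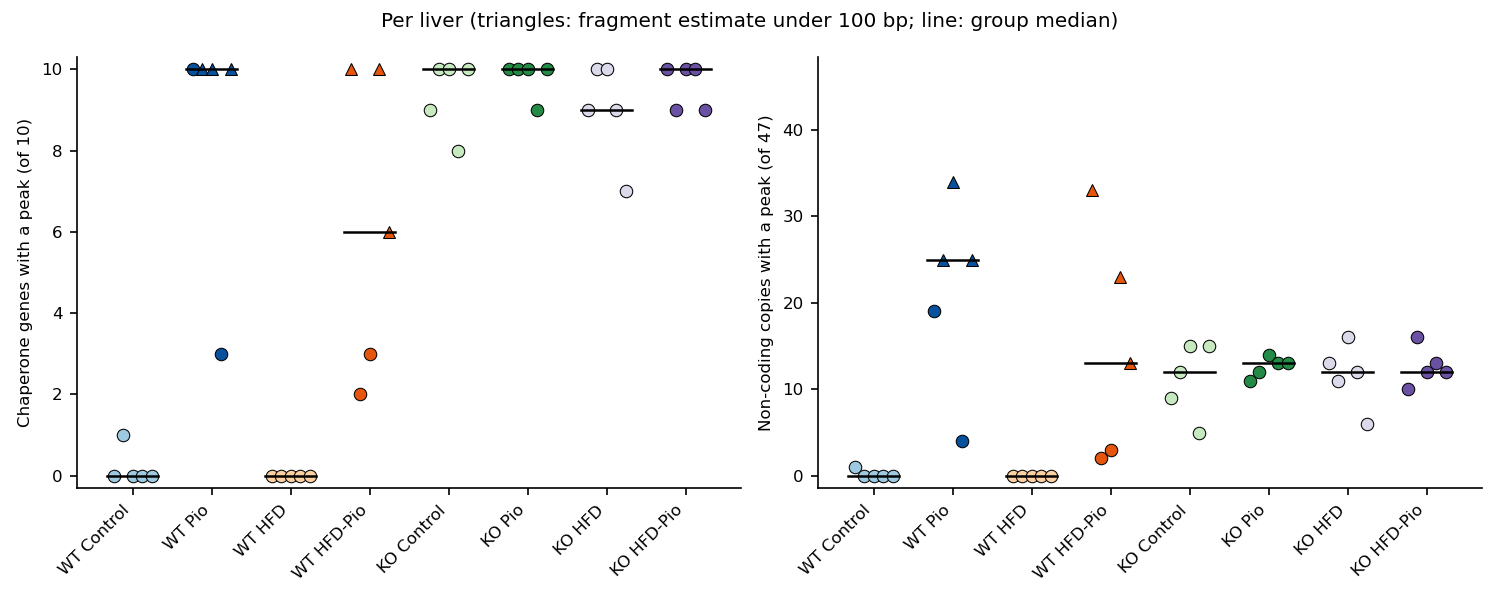
Number of the 10 chaperone genes with a peak (left) and of their 47 non-coding copies with a peak (right) in each liver, by group, with triangles for libraries whose fragment estimate is under 100 bp and a line at the group median. Untreated WT livers sit at 0 or 1 in both panels, and the copies reach 34 in WT Pio against at most 16 in KO livers.

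In KO livers the genes were called with or without Pio. Of the 10 genes, 9 or 10 were called in at least 3 livers of each KO group, where 24.3 to 28.995% of all genes were. The counts per liver were 9, 10, 10, 8 and 10 in KO Control and 10, 10, 10, 9 and 10 in KO Pio. They were 9, 10, 10, 9 and 7 in KO HFD and 10, 9, 10, 10 and 9 in KO HFD-Pio. Peaks per liver at the 10 genes numbered 32 to 59 in KO Control, 54 to 59 in KO Pio, 30 to 56 in KO HFD and 52 to 63 in KO HFD-Pio. In WT Pio they numbered 37, 44, 67, 4 and 44, and in WT HFD-Pio 58, 3, 4, 49 and 20, so that WT livers lay below, within and, in WT Pio liver 3, above the range of the KO groups. WT Pio liver 3 had a fragment estimate of 45 bp and narrow peaks. Its 67 peaks covered 7250 bp of the gene bodies, against 10439 to 20487 bp in KO livers, so by bases covered it lay under the KO range. A liver with fewer cells of a type and a liver with less binding per cell cannot be told apart in these bulk samples.

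Among cytosolic Hsp90 genes, Hsp90ab1, the steadily made form of Hsp90, had the strongest peaks of the 10 genes in KO livers. It lies at chr17:45567775-45573271 on the minus strand. Its fold enrichment was 26.01, 33.9, 33.5, 31.7 and 41.1 in KO Control, 39.5, 40.3, 40.4, 37.5 and 29.7 in KO Pio, 34.0, 29.6, 40.6, 31.1 and 24.2 in KO HFD, and 26.7, 42.0, 33.7, 32.3 and 29.2 in KO HFD-Pio. In WT Pio it was 10.3, 9.30, 12.8 and 6.52 in livers 1, 2, 3 and 5, and in WT HFD-Pio it was 13.1, 4.93, 10.5 and 7.12 in livers 1, 3, 4 and 5. All 20 KO values lay above all 8 WT values. Peaks covered 89.997 to 93.8% of its exon bases in KO livers and 11.2 to 54.6% in WT livers with a peak there. Exons 2 to 11 were each called in 20 of 20 KO livers, as the maps of peaks along the genes show.

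**Figure D2:**
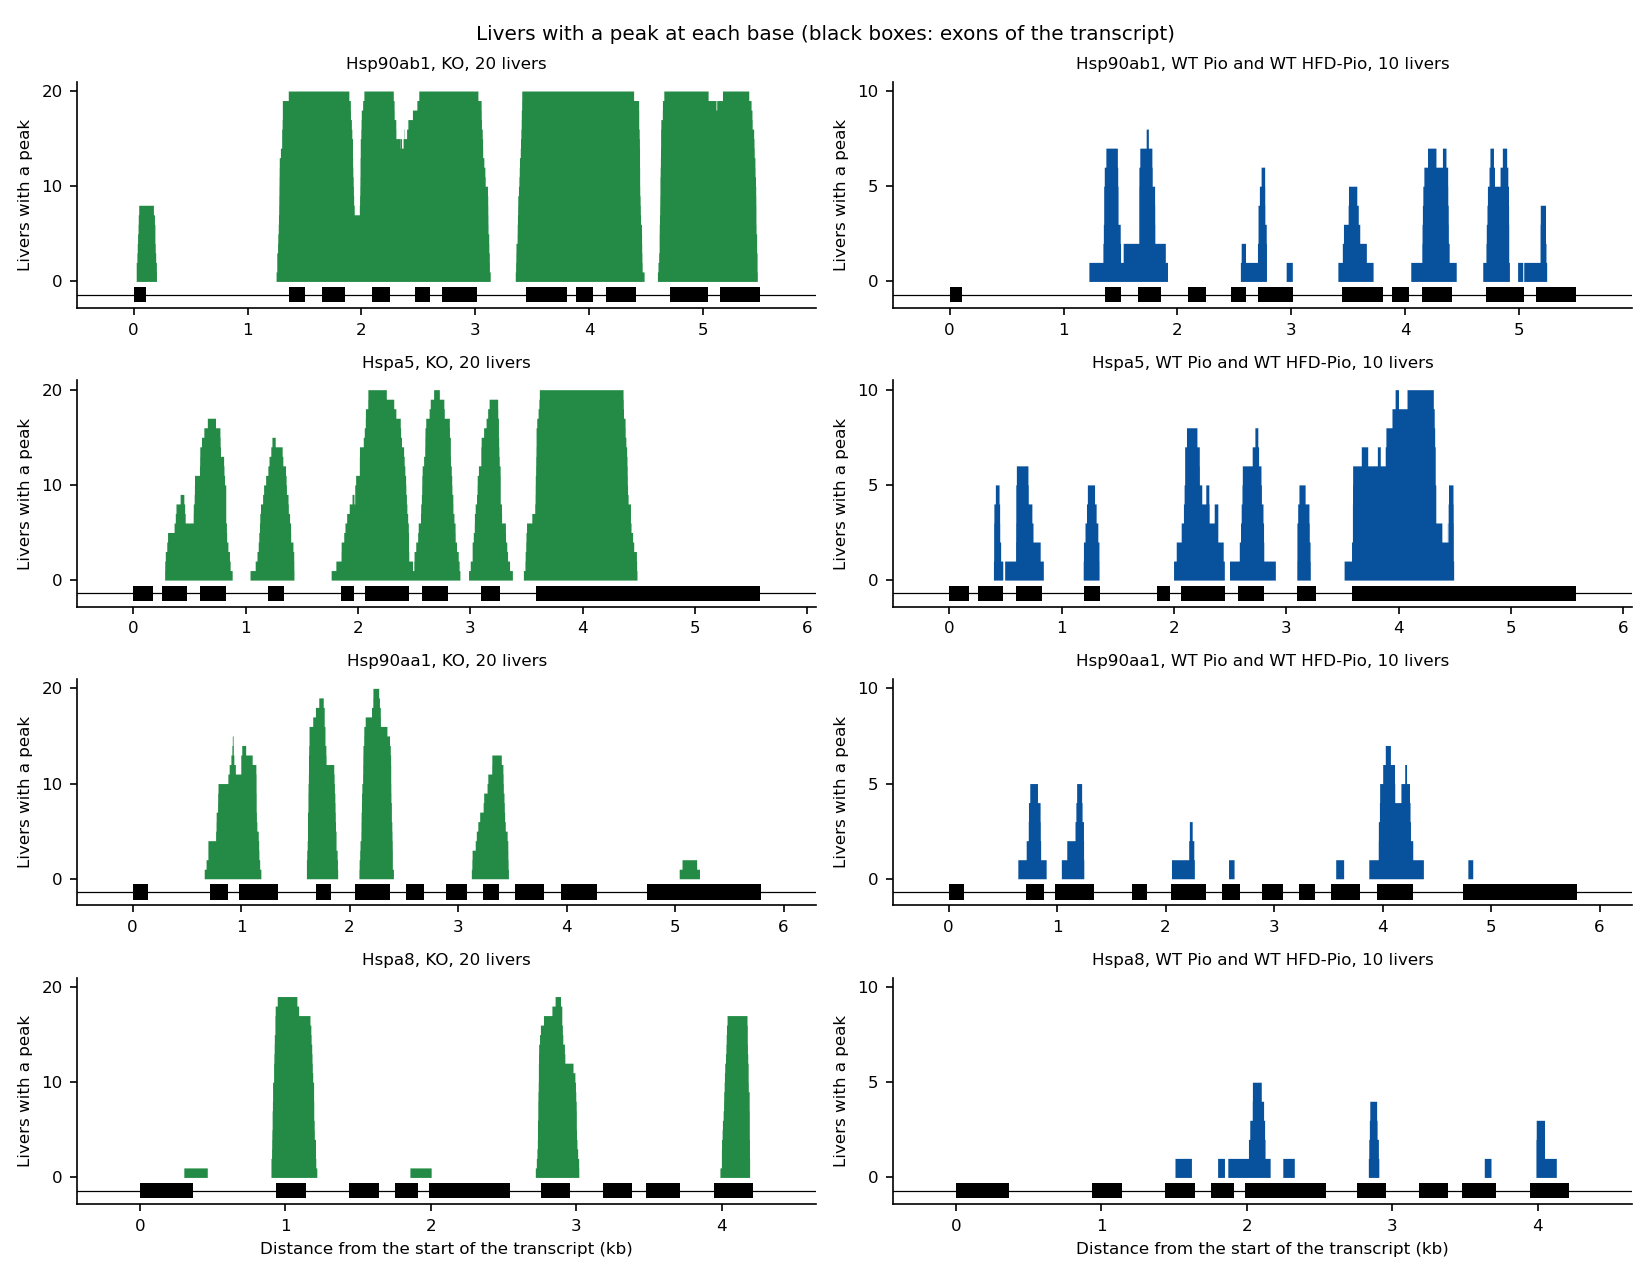
Number of livers with a peak at each base of Hsp90ab1, Hspa5, Hsp90aa1 and Hspa8 against distance from the transcript start in kb, for the 20 KO livers (left, green) and the 10 WT livers given Pio or HFD-Pio (right, blue), with exons as black boxes. Peaks stand over exons, Hsp90ab1 is covered nearly end to end in KO livers, and exon 4 of Hsp90aa1 is called in 19 of 20 KO livers and in none of the WT livers while exon 10 is called in 7 WT livers and in no KO liver.

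Hsp90aa1 (chr12:110690605-110702728, minus strand), the stress-inducible form of Hsp90, had weaker peaks than Hsp90ab1 in all 20 KO livers. Its fold enrichment was 5.48, 8.69, 6.45, 7.85 and 5.58 in KO Control, 8.74, 6.60, 10.3, 8.08 and 10.5 in KO Pio, 7.26, 5.71, 13.1, 10.4 and 5.46 in KO HFD, and 6.35, 7.25, 5.71, 5.60 and 9.48 in KO HFD-Pio. In WT Pio it was 10.9, 4.66, 9.93 and 8.45 in livers 1, 2, 3 and 5, and in WT HFD-Pio 8.28, 7.62 and 2.72 in livers 1, 4 and 5. These values overlapped between the genotypes.

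Hspa8 (chr9:40800984-40810087, plus strand), the Hsp70 protein that cells make without stress and that strips clathrin from vesicles, was called in 4 WT Pio livers at 6.84, 4.68, 11.8 and 5.63 and in 2 WT HFD-Pio livers at 4.69 and 6.67. It was called in 19 of 20 KO livers, all but KO HFD liver 5, at 5.20 to 12.3. The fold enrichments overlapped, but the exons did not match: exon 2 was called in 19 KO livers and in 0 WT livers with Pio or HFD-Pio, and exon 5 in 1 and 5. Exon 6 was called in 19 and 4. Its body also holds the small RNA genes Snord14c, Snord14d and Snord14e.

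Tcp1 (chr17:12915701-12925067, plus strand) and Cct2 (chr10:117051001-117063814, minus strand) encode subunits of TRiC, the cytosolic ring that folds actin and tubulin. Tcp1 was called in all 20 KO livers at 4.79 to 9.51, in 4 WT Pio livers at 6.41, 6.53, 8.20 and 6.57, and in 3 WT HFD-Pio livers at 8.44, 6.67 and 3.66. Cct2 was called in all 20 KO livers at 4.72 to 11.4, in 4 WT Pio livers at 5.32, 5.61, 6.73 and 5.63, and in 2 WT HFD-Pio livers at 5.63 and 4.76. The WT and KO values overlapped at both genes, and the WT values of Cct2 lay in the lower part of its KO range. Cct2 had a median of 9, 10, 9 and 11 peaks per liver in KO Control, KO Pio, KO HFD and KO HFD-Pio, spread over 15 of its 16 exons, and Tcp1 overlaps Mrpl18 and Acat3, so a peak near its ends can belong to either gene.

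Hspa5 (BiP; chr2:34771970-34777547, plus strand), the Hsp70 protein of the endoplasmic reticulum, was the one gene of the 10 that was called in all 10 WT livers with Pio or HFD-Pio and in all 20 KO livers. Its fold enrichment was 24.5, 12.8, 20.04, 3.34 and 13.1 in WT Pio and 13.98, 8.53, 10.6, 14.1 and 5.49 in WT HFD-Pio. In KO livers it was 9.24, 10.3, 12.4, 9.61 and 13.2 in Control, 13.99, 13.9, 8.55, 15.4 and 10.8 in Pio, 14.9, 8.64, 13.8, 13.9 and 9.25 in HFD, and 9.39, 14.3, 12.4, 12.3 and 14.8 in HFD-Pio. The genotypes overlapped, and WT Pio held both the highest and the lowest value. The site called in the most livers, chr2:34775442-34776458 in exon 9, spanned the end of the coding sequence and the start of the 3′ UTR, and the more distal UTR held no peak.

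Hsp90b1 (GRP94; chr10:86690209-86705509, minus strand), the Hsp90 protein of the endoplasmic reticulum that folds integrins and Toll-like receptors, was called in 5 WT Pio livers, 4 WT HFD-Pio livers and 20 KO livers. Its fold enrichment was 11.8, 9.36, 13.7, 4.63 and 7.51 in WT Pio and 12.2, 3.33, 10.5 and 4.58 in WT HFD-Pio livers 1, 3, 4 and 5. In KO livers it was 7.40 to 15.2, which overlapped the WT values. The leading site was over exon 5, at chr10:86701593-86702166, in 29 livers. The genes 1810014B01Rik, Gm15344 and Gm25745 overlap its body.

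Of the mitochondrial genes, Hspa9 (mortalin), on chromosome 18, the Hsp70 protein that pulls precursors into the matrix, had its weakest peaks in WT. It reached 4.56, 4.68, 4.56 and 3.75 in WT Pio livers 1, 2, 3 and 5 and 4.69 and 3.81 in WT HFD-Pio livers 1 and 4. In KO livers the values were 5.66, 5.66, 8.45, 6.41 and 11.3 in Control, 8.07, 9.43, 11.2, 9.27 and 9.51 in Pio, 11.4, 9.60, 7.51, 7.48 and 6.48 in HFD, and 5.63, 9.43, 7.63, 7.05 and 7.60 in HFD-Pio. All 20 KO values lay above all 6 WT values. Its leading site was over exons 16 and 17.

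Hspd1 (Hsp60; chr1:55077835-55088243, minus strand), the mitochondrial folding barrel, and Hspe1 (Hsp10; chr1:55088132-55091307, plus strand), its lid, lie head to head and their annotated starts overlap. They were the genes with the fewest calls in KO, 15 of 20 livers each. Hspd1 reached 10.6, 6.48, 7.29 and 6.57 in WT Pio livers 1, 2, 3 and 5 and 6.56 and 9.48 in WT HFD-Pio livers 1 and 4, against 2.77 to 8.11 in KO. Hspe1 reached 10.2, 11.9, 12.3, 3.93 and 12.6 in WT Pio and 21.04, 2.84, 16.1 and 6.44 in WT HFD-Pio livers 1, 2, 4 and 5, against 4.59 to 9.60 in KO. The highest WT values of these 2 genes lay above every KO value, which was the opposite order to Hsp90ab1 and Hspa9. The ranges overlapped. Of the exon windows searched for copies, 42.3% at Hspd1 and 61.7% at Hspe1 were found once in the genome. At Hsp90ab1 and Hspa9 the shares were 90.3% and 90.9%. The highest WT peaks were over Hspd1 exon 11 and Hspe1 exon 2, with 22.1% and 53.8% of windows found once. Whether these peaks arose at the gene or at a copy was not tested.

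**Figure D3:**
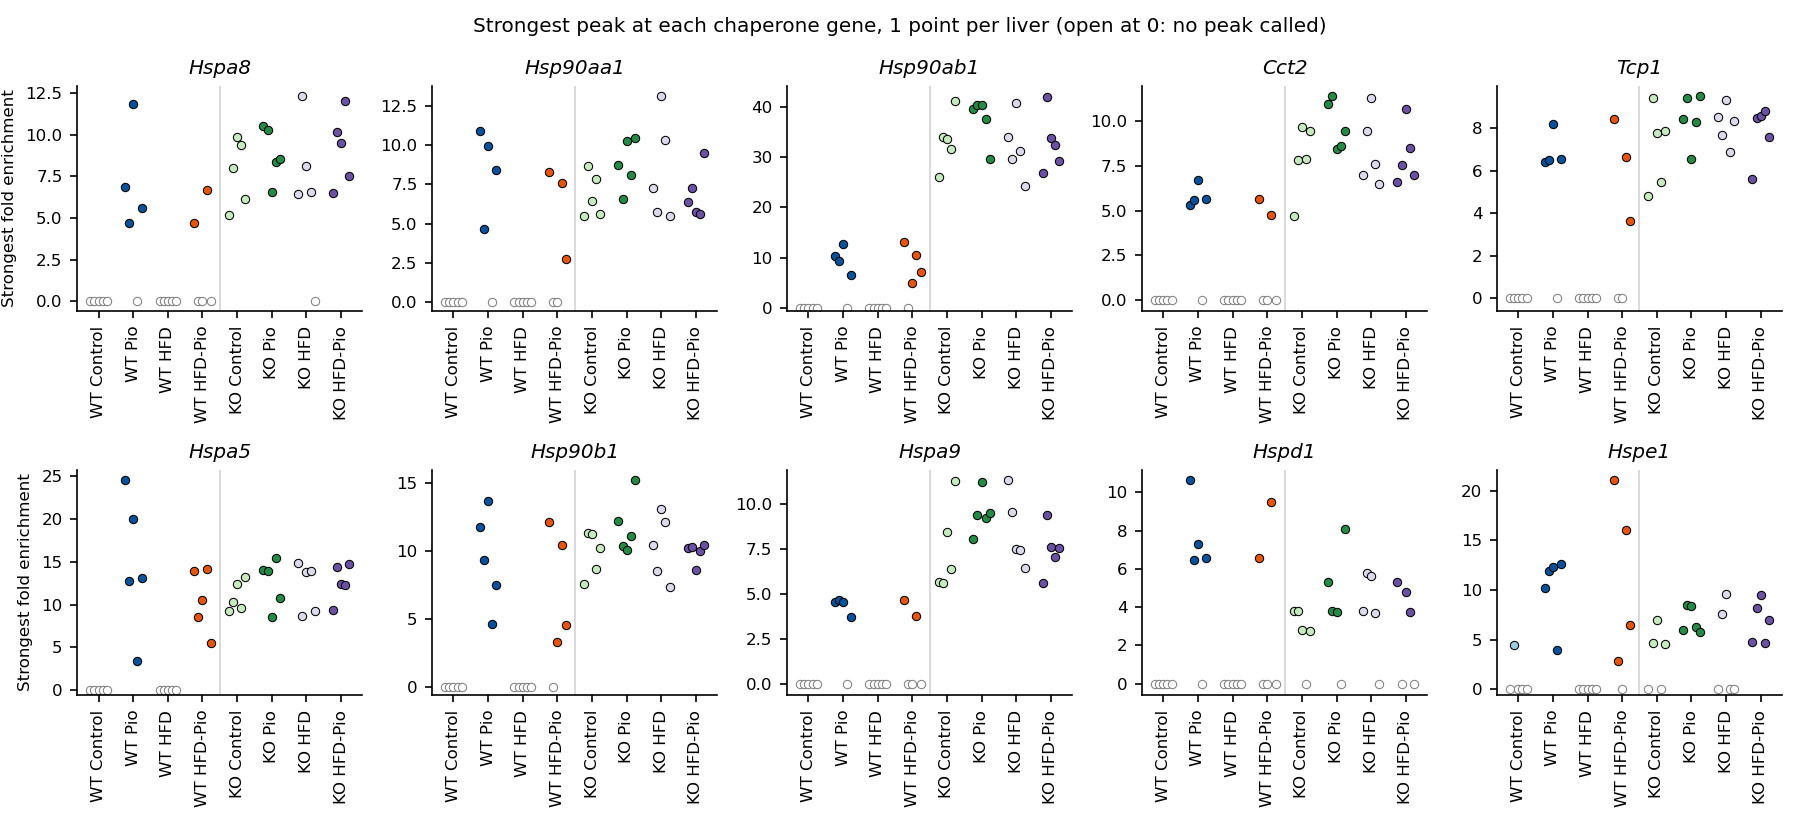
Fold enrichment of the strongest peak at each of the 10 genes in each liver, by group, each gene on its own scale, with open points at 0 for livers without a peak and WT groups left of the grey line. Hsp90ab1 is at 24.2 to 42.0 in KO and at most 13.1 in WT, Hspa9 is higher in every KO liver than in any WT liver, and the highest values of Hspd1 and Hspe1 are in WT livers with Pio or HFD-Pio.

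The effect of Pio was compared first on control diet in WT. Gained genes are those with calls in 3 or more livers of the first group and in no liver of the second, and lost genes are the reverse. Between WT Pio and WT Control 9 of the 10 genes were gained, all but Hspe1, which was called in 5 and 1 livers, and none was lost. Over all 21938 protein-coding genes 7.5% were gained and 0.0684% were lost. The background share of genes called in at least 3 livers was also uneven, at 12.7% in WT Pio and 2.21% in WT Control. Fisher's exact test (two-sided) compared livers with and without a call. With Benjamini-Hochberg adjustment over 3921 genes called in at least 3 of the 10 livers, none of the 10 genes and none of all genes passed an adjusted p of 0.05, and 1125 genes had an unadjusted p under 0.05. The smallest adjusted p was 0.114, for 5 livers against 0 as at Hspa5 and Hsp90b1 (exact p = 0.00794). For the other 8 genes the exact p was 0.0476 and the adjusted p 0.166. This outcome changed when WT Pio liver 4, which had 3 of the genes, was left out: 9 of the 10 genes then passed, and 1032 of all genes did. Every gene called in 4 Pio livers lacked a call in that liver alone, so their passing followed from which liver was left out. Of the Pio livers left, 2, 3 and 5 had short fragment estimates.

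On high-fat diet the direction was the same with fewer calls. Between WT HFD-Pio and WT HFD 6 of the 10 genes were gained (Hspa5 in 5 livers, Hsp90b1, Hsp90ab1 and Hspe1 in 4, Hsp90aa1 and Tcp1 in 3) and none was lost. The other 4, Hspa8, Cct2, Hspa9 and Hspd1, were called in 2 livers each. Of all genes 7.67% were gained and 0.00456% were lost. None of the 6 genes tested, nor any of the 2574 genes in the test, passed Fisher's exact test after adjustment, and 617 genes had an unadjusted p under 0.05. The smallest adjusted p was 0.105, which was that of Hspa5. Without HFD-Pio liver 2, which had 2 of the genes, 3 of the 10 passed, beside 441 of all genes. Hspa5, Hsp90b1 and Hsp90ab1 were called in every HFD-Pio liver then left, of which 1, 4 and 5 had short fragment estimates.

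The gains were also counted without the libraries with short fragment estimates. Only 2 livers then remained in each Pio group, among them WT Pio liver 4 with 3 of the genes and WT HFD-Pio liver 2 with 2, and the rule became a call in both. WT Pio liver 1, with a fragment estimate of 191 bp, had all 10 genes. The genes called in both remaining livers and in no untreated liver were 2 for Pio and 1 for HFD-Pio, against 308 and 235 of all genes. When every list was shortened to the length of the shortest one in the comparison, by −log10 p, 3 genes were gained with Pio and 1 with HFD-Pio. The part that fragment length and list length had in these gains was not tested further.

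Genes listed as markers of other tissues were called in the same livers. Over all genes 12.7% and 9.996% were called in at least 3 livers of WT Pio and WT HFD-Pio, and 24.3 to 28.995% in the KO groups. Of 10 genes listed for intestinal epithelium, 5 met this rule in WT Pio and 5 in WT HFD-Pio, in both Vil1, Lgals4, Krt20, Cdh17 and Krt8. None did in WT Control, WT HFD or any KO group. The summed fold enrichments per liver of the 10 were 0 to 65.4 in WT Pio, 2.99 to 76.7 in WT HFD-Pio, 0 to 10.2 in WT Control, 0 in WT HFD and at most 7.36 in KO. These sums include Krt8, the strongest of the 5 in WT Pio (mean 13.8). Whether each gene is particular to this tissue was not tested. Of the 10, Fabp2 was at 0 in every library. Of 10 smooth muscle markers, 5 and 4 were called in at least 3 livers of WT Pio and WT HFD-Pio. By the same rule 3, 3, 3 and 6 were called in KO Control, KO Pio, KO HFD and KO HFD-Pio, and none in WT Control or WT HFD. The sums of these markers were 10.9 to 82.5 in WT Pio and 12.95 to 87.7 in WT HFD-Pio. They were 0 to 9.45 in WT Control, 0 in WT HFD and 10.2 to 37.4 in KO. Of 10 neural markers, 8 were called in at least 3 livers of each KO group, with sums of 91.3 to 147. Snap25 and Syt1 met the same rule in WT Pio and WT HFD-Pio, and no neural marker did in WT Control or WT HFD. The peaks of Snap25 and Syt1 in WT livers touched no exon, while both had exon peaks in 5 of 5 livers of every KO group. The sums of the neural markers were at most 24.7 in any WT library. Of 10 liver markers, the serum protein gene Ttr was called in all 20 KO livers, Pck1 in 5 WT Pio and 3 WT HFD-Pio livers, and Alb, Apoa1, Apob, Fgb, Cyp2e1 and Cps1 in no KO liver. The summed fold enrichments of the liver markers were 0 to 37.6 in WT Control, 3.97 to 12.8 in WT Pio, 0 to 3.85 in WT HFD, 0 to 10.3 in WT HFD-Pio and 13.9 to 30.6 in KO. A peak is not a measure of RNA, and the part of these tissues in the peaks at chaperone genes was not tested.

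In KO livers Pio was not seen to change the chaperone genes. Between KO Pio and KO Control none of the 10 genes was gained or lost, with 0.811% and 0.187% of all genes gained and lost, and between KO HFD-Pio and KO HFD none was, with 0.474% and 0.296%. Fisher's exact test passed no gene in either comparison (7771 and 7762 genes tested, 104 and 44 with an unadjusted p under 0.05), and every adjusted p was 1. Neither the counts nor Fisher's test could have shown an increase at the chaperone genes. Each of these genes was already called in at least 3 KO Control livers and at least 2 KO HFD livers. Fold enrichment was compared with limma on the log2 scale, centred on the median of each library, over genes called in all 10 livers, and a call needed an adjusted p under 0.05 and a change of at least 2-fold. Of the 8 chaperone genes in the test none was called between KO Pio and KO Control, with differences of 0.09 to 0.30 and a smallest adjusted p of 0.874 (limma), while 0.181% of the 2207 genes were lower and none higher. The largest difference was 0.30 ± 0.18 (log2, SE) at Hspa9. Of the 7 genes tested between KO HFD-Pio and KO HFD none was called, with differences of −0.18 to 0.13 and a smallest adjusted p of 0.980 (limma), and none of 2394 genes was. Whether the effect of Pio differed between WT and KO was not tested as such.

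The diet alone moved no chaperone gene past a threshold. Between WT HFD and WT Control none was gained or lost (0.0137% and 0.852% of all genes), and no chaperone gene had enough calls for Fisher's test. Between WT HFD-Pio and WT Pio none was gained or lost (0.219% and 0.374%), although Hspa8, Cct2, Hspa9 and Hspd1 went from 4 livers with Pio to 2 with HFD-Pio (exact p = 0.524 and adjusted p = 1 for each by Fisher's exact test). Hspa5, the one gene called in all 10 of these livers, differed by 0.00 ± 0.27 (log2, SE; adjusted p = 0.999, limma). Between KO HFD and KO Control none was gained or lost (0.456% and 0.242%), and 7 genes tested by limma differed by −0.11 to 0.20 (smallest adjusted p = 0.990). Between KO HFD-Pio and KO Pio none was gained or lost (0.242% and 0.574%), and 9 genes tested differed by −0.26 to 0.14 (smallest adjusted p = 0.996, limma). By the rule no gain was possible against WT Pio, KO Control or KO Pio, since all 10 genes were called in some liver of each.

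Genotype was compared within each diet. Of the 10 genes, 9 were lost in WT Control against KO Control and 9 in WT HFD against KO HFD, that is, called in at least 3 KO livers and in no WT liver. Over all genes 17.2% and 23% were lost and 0.433% and 0.123% gained. The exception was Hspe1, with 1 WT liver against 3 KO livers on control diet and 0 against 2 on high-fat diet. By Fisher's exact test 8 of 10 were called in fewer WT Control than KO Control livers (adjusted p = 0.0296, which was the smallest that any gene reached, for 5 livers against 0), beside 26.7% of 6107 genes, while 0.0819% were called in more. On high-fat diet 7 of the 9 tested passed (adjusted p = 0.0201), beside 39.3% of 5890 genes (0.136% in more), and Hspa8 and Hspd1, with 0 livers against 4, had an adjusted p of 0.0701. KO and WT lists were called at different cutoffs and depths, and in lists of equal length 3 genes on control diet and 2 on high-fat diet were lost. The call by Fisher's exact test on control diet also depended on the genes tested: with every gene called in at least 1 of the 10 livers in the adjustment, none of the 10 genes and no other gene passed.

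With Pio in both genotypes no chaperone gene was gained or lost between WT Pio and KO Pio, where 2.33% and 10.8% of all genes were, or between WT HFD-Pio and KO HFD-Pio, where 1.7% and 11.1% were. By the rule no gain was possible here, since all 10 genes were called in some liver of KO Pio and of KO HFD-Pio. No chaperone gene passed Fisher's exact test in either comparison. Of all genes tested, 16.6% of 8206 and 16.8% of 7797 were called in fewer WT livers and 0.719% and 0.398% in more. Over genes called in all 10 livers, 3 of the 10 could be tested between WT Pio and KO Pio and none was called, where 6.67% of 255 genes were higher and 11.8% lower in WT. Hsp90b1 differed by −0.47 ± 0.23 (adjusted p = 0.0962), Hspa5 by −0.06 ± 0.27 (adjusted p = 0.867) and Hspe1 by 0.39 ± 0.22 (log2, SE; adjusted p = 0.146, limma). In the HFD-Pio groups 1 gene could be tested, Hspa5, at −0.32 ± 0.26 (adjusted p = 0.408, limma), where 2.99% of 167 genes were higher and 13.2% lower.

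With genes called in at least 4 of 5 livers of both groups all 10 could be tested between WT Pio and KO Pio, and 2 were lower in WT, beside 9.73% of 956 genes. Hsp90ab1 differed by −2.03 ± 0.25 (log2, SE; adjusted p = 7.72e-06, limma), a fold enrichment 4.10-fold higher in KO, and Hspa9 by −1.17 ± 0.23 (adjusted p = 5.4e-04), 2.245-fold higher in KO. Cct2 differed by −0.79 ± 0.22 (adjusted p = 0.0084), which was under the 2-fold minimum. Hspd1, at 0.54 ± 0.28 (adjusted p = 0.123), and Hspe1, at 0.53 ± 0.26 (adjusted p = 0.111), had differences of the opposite sign that did not pass. Between WT HFD-Pio and KO HFD-Pio 4 genes could be tested and Hsp90ab1 was lower in WT, with a difference of −1.98 ± 0.25 (log2, SE; adjusted p = 5.45e-06, limma), beside 12.9% of 498 genes. WT liver 4 of Pio and WT liver 2 of HFD-Pio had no Hsp90ab1 peak and so gave no value in these fits. With the livers called in full as the rule, leaving out WT Pio liver 4 gave 2 calls in place of none, and leaving out WT HFD-Pio liver 2 gave 1.

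Peaks lay mainly over exons. Of the 1387 peaks 41.0% lay wholly inside annotated exons, 58.7% covered exon and intron bases, and 4 peaks, or 0.288%, lay wholly in an intron. Summits fell in coding exons for 1173 peaks, in 3′ UTRs for 91, in 5′ UTRs for 3, in exons of other transcripts for 32 and in introns for 87, and 1 summit lay outside the gene, so that 93.7% were exonic. Exons make up 19.95 to 75.8% of these gene bodies. The 4 intronic peaks were at Tcp1 in WT HFD-Pio liver 5 (3.52-fold) and KO Control liver 1 (3.77-fold), at Hspa9 in KO HFD-Pio liver 4 (2.84-fold) and at Hspe1 in WT Control liver 2.

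The share of peak bases that were exonic was 87.6% ± 16.6 in WT Pio, 97.2% ± 3.28 in WT HFD-Pio, 76.5% ± 3.54 in KO Control, 75.7% ± 2.81 in KO Pio, 78.1% ± 4.73 in KO HFD and 75.6% ± 2.13 in KO HFD-Pio (SD, n = 5 livers each). Within WT Pio it was 71.8% and 67.2% in livers 1 and 4, and 99.8%, 99.7% and 99.6% in livers 2, 3 and 5, whose libraries had short fragment estimates. Peaks in the 6 short-fragment libraries were 77.5 bp wide at the median, against 297 bp in the 4 other WT libraries with Pio and 239 bp in KO, and the part of width in these shares was not tested. Over all protein-coding genes, whose bodies are 9.23% exon, the exonic share of genic peak bases had a median of 9.02% in WT Control, 10.98% in WT HFD, 52.3% in WT Pio and 33.4% in WT HFD-Pio, and medians of 80.9 to 83.1% in the KO groups. The share at the chaperone genes was thus above the share over all genes in both WT groups with Pio and slightly under it in the KO groups.

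**Figure D4:**
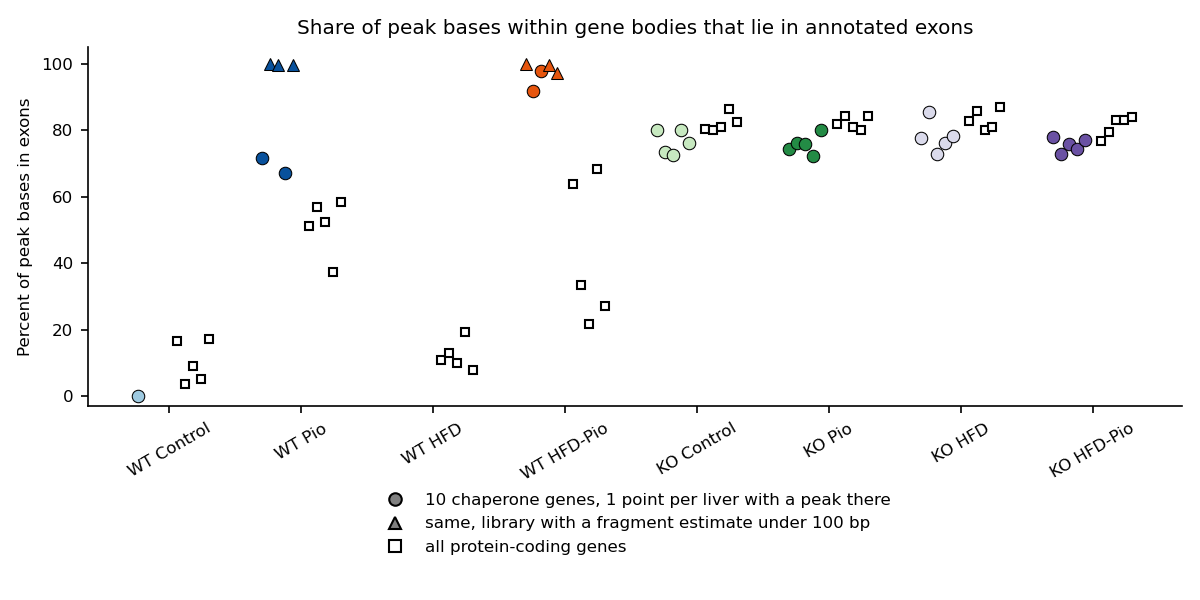
Percent of the peak bases within gene bodies that lie in annotated exons, in each liver by group, for the 10 chaperone genes (points, with triangles for libraries with a fragment estimate under 100 bp) and for all protein-coding genes. The chaperone genes are at 67.2 to 99.8% in WT Pio and at 72.2 to 85.6% in KO, and all genes at 9.02% (median) in WT Control.

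Calls per exon were set beside the share of the exon's sequence that is found nowhere else in the genome. The share of 49-base exon windows found once in mm10 was 100% at Hspa5 and Cct2, 97.5% at Hsp90b1, 90.9% at Hspa9, 90.3% at Hsp90ab1, 84.3% at Tcp1, 61.7% at Hspe1, 42.3% at Hspd1, 30.3% at Hsp90aa1 and 23.0% at Hspa8. The 78 exons with at least 90% unique windows were called in a median of 13 of 20 KO livers, and 5 of them in none. The 28 exons with 10% to under 90% had a median of 12.5 KO livers, and 3 of them were called in none. The 13 exons with under 10% unique windows were called in a median of 0 KO livers, 12 of them in none and the other in 1. In the 10 WT livers with Pio or HFD-Pio the medians of these sets were 1, 3 and 1 liver, and 29 of 78, 16 of 28 and 5 of 13 exons were called in at least 3. How reads that match several places were handled is not given in the sources used here, and its part in these counts was not tested.

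**Figure D5:**
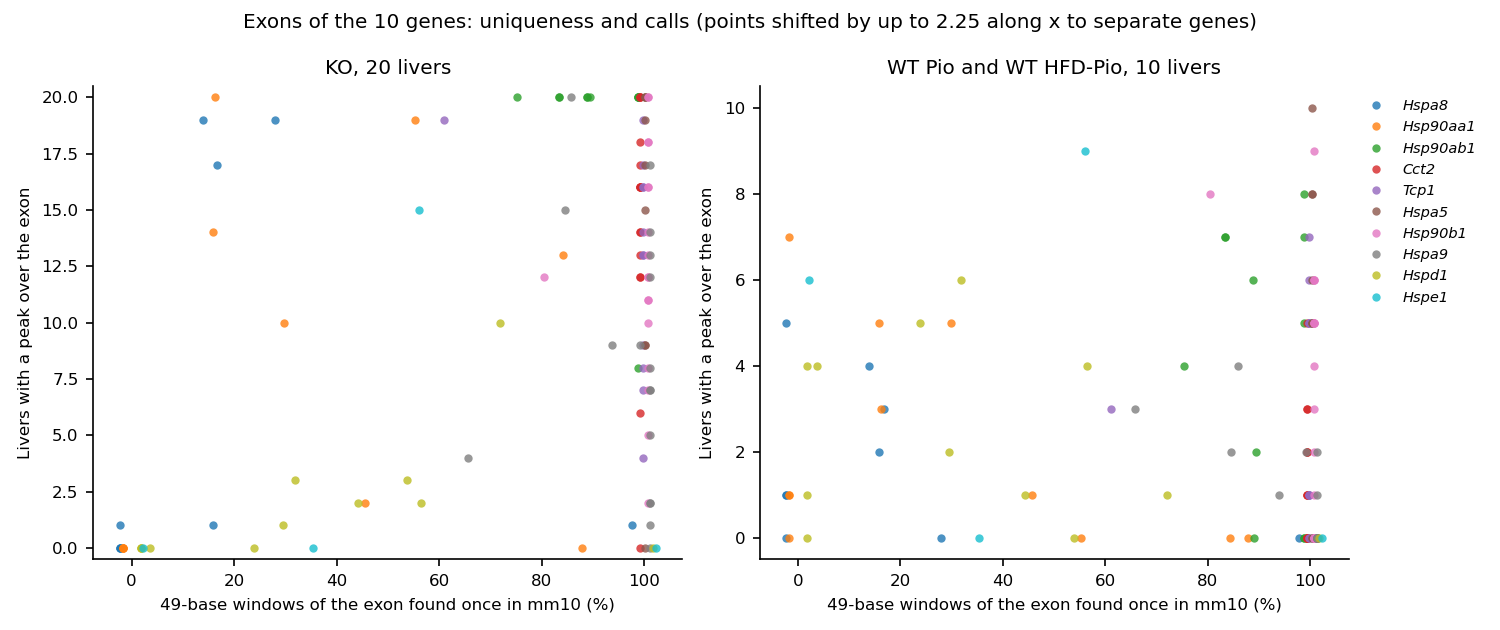
Number of livers with a peak over each exon of the 10 genes against the percent of the exon's 49-base windows found once in mm10, for KO livers (of 20) and for WT livers given Pio or HFD-Pio (of 10), coloured by gene. Exons at the left of the KO panel, under 10% unique, sit at 0 or 1 livers, while several of them are called in 3 or more WT livers.

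Single exons with few unique windows differed from each other. Exon 5 of Hspa8 and exon 3 of Hspe1 had 0% unique windows and were called in 5 and 6 WT livers and in 1 and 0 KO livers. Exon 4 of Hspd1, also at 0%, was called in 4 and 0, and its exon 11, at 22.1%, in 5 and 0. Other exons with few unique windows were called in most KO livers, namely Hsp90aa1 exon 5 (17.9% unique) in 20 KO and 3 WT livers, Hspa8 exon 6 (16.1%) in 19 and 4, Hspa8 exon 9 (19.0045%) in 17 and 3, and Hsp90aa1 exon 3 (17.6%) in 14 and 5. By length, the 62 exons of at least 150 bp were called in a median of 13.5 KO and 3 WT livers, and the 57 shorter exons in 12 and 1. The part of length in these counts was not tested.

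Retroposed copies of these transcripts, which lack introns, also held peaks. A search of mm10 with the coding sequences (at least 80% identity over at least 50% of the sequence) found 47 non-coding copies, 45 of them annotated pseudogenes, of Hspa8 (13), Hspd1 (12), Hspe1 (11), Hsp90ab1 (6), Hsp90aa1 (3), Tcp1 (1) and Hspa9 (1), and none of Hspa5, Hsp90b1 or Cct2. In WT Pio 19, 25, 34, 4 and 25 copies had a peak in livers 1 to 5, and in WT HFD-Pio 33, 2, 3, 23 and 13. In KO livers 5 to 16 had one. In untreated WT livers 1 copy had a peak in 1 liver. Of the 47 copies 38 were called in some WT liver with Pio or HFD-Pio and 25 in some KO liver, and all of these 25 were among the 38.

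Copies with at least 95% identity to the gene were called most. These 8 copies were called in a median of 7 of 10 WT livers with Pio or HFD-Pio and in 13 of 20 KO livers. The 11 copies at 90 to 95% were called in a median of 3 and 1, and the 28 copies under 90% in 3.5 and 0, so the WT medians did not fall steadily with identity. Gm12346, at 99.5% identity to Hsp90aa1, was called in 4 WT Pio, 4 WT HFD-Pio and 20 KO livers, and Hspd1-ps3, at 99.0% to Hspd1, in 5, 4 and 20, with fold enrichments up to 10.3 and 21.3. Gm6210, at 98.6% to Hspa8, was called in 3, 2 and 0. The most strongly called copy of Hsp90ab1, Gm6368 on chromosome X at 90.8%, was called in 5, 3 and 20.

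At the outermost annotated start of each gene body few peaks were found. In windows from 1000 bp before to 100 bp after it, Hspa8, Hsp90aa1, Cct2, Hspa5, Hspa9 and Hspe1 had no peak in any library. At Hsp90aa1, Tcp1 and Hspd1 the window lay wholly upstream of exon 1 of the transcript used for numbering. That exon was called in 8 KO livers at Tcp1 and in 0 livers at Hsp90aa1 and Hspd1. The window of Hspd1 was called in 1 WT Control, 5 WT Pio, 4 WT HFD-Pio and 15 KO livers, but it reaches into exon 2 of Hspe1. The window of Hsp90ab1 was called in 2, 2, 1 and 3 livers of KO Control, KO Pio, KO HFD and KO HFD-Pio, that of Tcp1 in 1 and 2 livers of KO Control and KO Pio, and that of Hsp90b1 in 1 liver of KO HFD-Pio. Over all genes the median share of start windows with a peak was 0.105 to 0.784% in WT groups and 1.65 to 2.29% in KO groups.

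Motifs were searched on both strands within 100 bp of each summit. The exact repeat of 2 hexamers with a spacer of 1 base, AGGTCANAGGTCA, was in 0 of 1387 windows at the chaperone genes and in 0 to 0.0383% of all windows by group. The single hexamer AGGTCA, which the repeat contains, was in 13.6% of the chaperone windows. It was in 5.62 to 9.76% of all windows in the WT groups and in 12.8 to 12.98% in the KO groups. Of the 1387 chaperone windows 1056 came from KO libraries. The same site recurs across libraries, so the 1387 windows are not separate sequences, and no enrichment was tested. Windows of 250 bases before to 50 after the start (RefSeq, GRCm38.p6) were at hand for 6 of the 10 genes, and GAANNTTC, the core of the element bound by heat shock factors, was in 1 of 2 windows of Cct2, 1 of 2 of Hspd1 and the single window of Hspe1, and in 7.86% of all 32851 windows.

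Other chaperone genes, listed by function, were called in part. Of 67 such genes 20 were gained in WT Pio and 16 in WT HFD-Pio, beside 7.5% and 7.67% of all genes, and 23 and 17 were called in at least 3 livers. In KO groups 40 to 44 were called in at least 3 livers, where 24.3 to 28.995% of all genes were. The 5 other TRiC subunits used, which leave out Cct6a, were all gained in both diets, with Cct7 in 5 WT Pio livers and Cct8 and Cct3 in 4. All 5 were called in 20 of 20 KO livers. Of 8 Hsp90 co-chaperones 3 were gained in WT Pio, namely St13, Ptges3 and Ahsa1, each in 4 livers, and 7 or 8 were called in at least 3 livers of each KO group. Of 10 J proteins and nucleotide exchange factors, which drive the Hsp70 cycle, 4 were gained, among them Dnajb6 in 5 livers and Dnaja1 and Dnaja2 in 4. Dnajb6 was called in 2 of 20 KO livers, and its WT Pio peaks touched an exon in 1 of 5 livers.

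In the endoplasmic reticulum 4 of 15 folding genes were gained in WT Pio, among them the lectin chaperone Calr and the disulfide isomerase Pdia6 in 4 livers each, while Pdia3, also called in 4, had 1 call in WT Control. In KO groups 9 or 10 of the 15 were called in at least 3 livers. Of 6 prefoldin subunits, which hand actin and tubulin to TRiC, Pfdn5 was gained with 4 WT Pio livers and Pfdn2 with 3, and Vbp1 was called in 2. The cytosolic Hsp70 and Hsp110 list (8 genes) and the list of mitochondrial folding factors and proteases (6 genes) had no gain in WT. The stress-inducible Hspa1b was called in 2 WT Pio livers and Hspa14 in 2, and Hspa4 in 1 WT Pio liver and all 20 KO livers. Of the mitochondrial list, Trap1, Clpx and Dnaja3 were each called in 1 WT Pio liver. Of the 4 small heat shock proteins, Cryab was gained with 3 WT Pio livers and was called in 2 KO livers, Hspb8 was called in 1 KO liver, and Hspb1 and Hspb6 had no call. Of 5 heat shock and unfolded protein response factors, Atf4 was gained with 4 WT Pio livers and called in all 20 KO livers, and Xbp1 and Atf6 in 1 WT Pio liver and in 15 and 6 KO livers.

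The gene most like each chaperone gene was the one whose log2 strongest fold enrichment, set to 0 where no peak was called, correlated best with it over the 40 libraries. The 3 highest values were 0.994 for Gm20721, which overlaps Gnas, with Hsp90ab1, 0.991 for Calr with Cct2 and 0.986 for Calr with Hspa9 (Pearson's r). Gm20721 was called in 0, 4, 0 and 4 livers of WT Control, WT Pio, WT HFD and WT HFD-Pio and in all KO livers, with fold enrichments up to 42.6. The libraries share genotype, depth and cutoff, so these are descriptions with no test.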

How the data were processed

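RXR ChIP-Seq of 40 livers, 5 in each of 8 groups named by the sample labels, was used with the peak lists as deposited. Only ChIP samples had files here, and the 40 input samples had none. Alignment to mm10 was by Novoalign, and the authors ran MACS2 2.1.1.20160309 on each library with its own input as control, with 1 tag kept per position and no pooling of replicates. WT libraries had a p cutoff of 0.001 and KO libraries a q cutoff of 0.05, per the file headers. The deposited ratio of ChIP to background at the summit (fold enrichment) gave peak strength, the deposited signal (pileup, in tags) gave depth, and the deposited −log10 p and −log10 q values served for lists of equal length and a stricter cutoff. A second file per library held the same peaks and was not used. The lists hold no reads per site, so the authors' test on read counts was not repeated.

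Rows that were summits of the same peak were merged, and peaks were assigned to gene bodies of GENCODE M21 by an overlap of at least 1 bp. Genes counted as gained or lost, two-sided Fisher's exact tests on livers called (genes called in at least 3 of 10 livers) and limma with a trend (genes called in all 10 livers, at least 100 such genes, 2-fold and adjusted p under 0.05) were fitted over all genes with Benjamini-Hochberg adjustment, and were tested on simulated data. The labels do not pair livers across groups, and p-values measure the spread between these livers. Windows of 49 bases, BLAST 2.17.0 hits with at least 80% identity and 50% of the coding sequence, merged within 2000 bp, and exon positions came from the same build. Software was R 4.3.3 with limma 3.58.1, and Python 3.11.15 with scipy 1.17.1, matplotlib 3.10.9, pandas 2.3.3, pysam 0.24.0 and numpy 2.4.6.

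The 10 genes, the marker lists and the lists of other chaperones were chosen with earlier results of these data known. Cct6a and Ddit3 were on the lists and are not used here, since neither name stood for a single protein-coding entry in the annotation used. The calls of 1 liver marker are not reported here. Named by rule were the 10 genes, for each the site called in most libraries, up to 3 genes per list of other chaperones with the largest difference in livers called between WT Pio and WT Control, and the 3 genes most alike over libraries. Single exons, copies and list members beyond that rule were chosen after their values were seen. Precision is limited by thin peaks, since no counting interval can be had from a peak list.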

Additional observations from a re-analysis of the deposited data

Results flagged for a closer look

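In each group of 4 or 5 livers with a value, the highest and the lowest value were compared with the rest by the gap to the nearest value over the whole range. Of 73 sets examined 10 had a value apart by Dixon's 95% critical value, and no explanation was tested for any of them. Chance gives about 1 set in 20 for unrelated sets without ties, but these sets shared livers and some counts were tied. Where all other livers tied, 1 differing liver was flagged however small its difference. The number flagged can therefore not be set against chance.

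Numbers of genes called stood apart in 3 livers. WT Control liver 2 had 1 of the 10 genes, by 1 peak, where the other 4 had 0 of both. WT Pio liver 4 had 3 genes where the others had 10, and KO Pio liver 4 had 9 where the others had 10. Peaks at the 10 genes numbered 30 in KO HFD liver 5, against 50 to 56 in the others.

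Strongest fold enrichments stood apart in 5 cases. Hsp90ab1 was 29.7 in KO Pio liver 5 against 37.5 to 40.4 in the others, and Hsp90b1 was 8.58 in KO HFD-Pio liver 3 against 10.01 to 10.5. In WT Pio, Tcp1 was 8.20 in liver 3 against 6.41 to 6.57, Hspa9 was 3.75 in liver 5 against 4.56 to 4.68, and Hspe1 was 3.93 in liver 4 against 10.2 to 12.6. WT Pio liver 4 thus appears in 2 of the 10.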

How the results depend on the processing

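Of the alternative values computed, 710 stayed within the limits set for them and 32 moved, and no called value changed sign. Counts of 0 that stayed at 0 are among the 710, as for genes gained or lost in the comparisons within KO when 1 liver was left out. The 710 is thus no measure of stability. Counts are of the 10 chaperone genes unless all genes are named. In lists of equal length, genes gained were 3 for WT Pio and 1 for WT HFD-Pio, genes past Fisher's exact test were 2 for WT Pio, genes lost against KO were 3 (Control), 2 (Pio), 2 (HFD) and 3 (HFD-Pio), and genes past Fisher's test against KO were 3 (Control), 1 (HFD) and 2 (HFD-Pio). Keeping peaks with −log10 q of 5 or more, 3 genes were gained with HFD-Pio and 5 passed Fisher's test in WT Control against KO Control. With the same cutoff 1 was lost and 1 passed in WT Pio against KO Pio, and 1 and 1 in the HFD-Pio groups. Without libraries of a short fragment estimate 2 and 1 genes were gained with Pio and HFD-Pio. With peaks over an exon only, 3 genes passed Fisher's test in WT Pio against WT Control, and with all genes called in at least 1 liver tested 0 passed in WT Control against KO Control. By limma 1 gene was called between WT Pio and KO Pio on pileup and 2 with genes called in at least 4 of 5 livers, and 1 was called between WT HFD-Pio and KO HFD-Pio with that rule. Counting exons of protein-coding transcripts only, by construction a smaller set, gave exonic shares of 93.8% (WT HFD-Pio), 69.2% (KO Control), 68.1% (KO Pio), 71.4% (KO HFD) and 68.3% (KO HFD-Pio). The cause of the other moves was not tested. Over all genes, those gained with WT Pio numbered 1645, and 858 at a −log10 q of 5 or more and 333 at equal length, and with WT HFD-Pio 1682, 318 and 189. Genes lost against KO fell at equal length from 3771 to 452 (Control), 2366 to 589 (Pio), 5049 to 303 (HFD) and 2438 to 648 (HFD-Pio), and those past Fisher's test from 1636 to 260, 1418 to 420, 2324 to 181 and 1339 to 411. With all genes called in at least 1 liver tested, 0 passed in the Control, Pio and HFD-Pio comparisons with KO. By limma 47 genes were called between WT Pio and KO Pio, 97 on pileup, 27 on the mean peak and 183 with the 4-of-5 rule, and 27, 50, 16 and 96 between the HFD-Pio groups. Without centring, the median difference of all genes went from 0.02 to 0.12 for KO Pio against KO Control, from 0.00 to −0.10 for KO HFD-Pio against KO Pio and from 0.07 to −0.23 for WT HFD-Pio against WT Pio (log2), and no chaperone gene was called.

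Leaving out 1 liver at a time, genes gained ranged from 9 to 10 with WT Pio and from 4 to 6 with WT HFD-Pio. Genes past Fisher's test ranged from 0 to 9 in WT Pio against WT Control (9 without Pio liver 4), from 0 to 3 in WT HFD-Pio against WT HFD (3 without HFD-Pio liver 2), from 8 to 9 in WT Control against KO Control and from 7 to 9 in WT HFD against KO HFD. Genes past limma ranged from 0 to 2 in WT Pio against KO Pio and from 0 to 1 in the HFD-Pio groups, the highest values again without those livers.

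With the replicate number as a block 0 of the 10 genes were called by limma in every comparison, as without it, and the numbers called over all genes were also the same. Replicate numbers only name livers: over 1850 genes called in all 20 KO libraries, deviations of same-numbered livers correlated at −0.065 to 0.054 and those of other pairs at −0.11 to 0.10, and 1 of 20 libraries was closest to its own number.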
